A study of Mus musculus with 4 samples.

Results

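The regions described here are 348 array probes whose DNA signal was high in each of 4 mouse liver tumours. They were chosen by their own values: a probe of chromosomes 1 to 19 was a member where its log2 ratio of tumour over control liver was 0.75 or higher in all 4 tumours, after each array was centred on its median over those chromosomes. Of 161417 probes with a value in all 4 tumours, 348 met this rule, which is 0.216%, and a further 43 of the 161460 probes lacked 1 or more values. The ratios that chose the members are given below as a description, with no test.

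The study hybridised genomic DNA of liver tumours from 4 mice of genotype FAH-/- Trp53-/- against a pool of normal liver DNA from 3 sex-matched littermates of genotype FAH+/+ Trp53+/+. The tumour mice had been kept on NTBC at 2.5% of the usual 7.5 mg/L in drinking water for 6 months, and all samples were labelled male. The tumours carry the animal numbers 239, 240, 244 and 252. Tumour DNA carried Cy5 and the pool Cy3 on each of 4 arrays of 1 slide, with no dye swap, so the pool's own spread was not measured, and a probe property that acts on 1 dye or on the pool is shared by all 4 ratios. Ages, the way each allele was made and the share of normal cells in each tumour were not stated in the labels.

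FAH is the last enzyme of tyrosine breakdown, and without it toxic intermediates build up in hepatocytes; NTBC blocks the pathway upstream and so protects the liver. Trp53 encodes the tumour suppressor p53. In array comparative genomic hybridisation the log2 ratio follows the number of DNA copies: 3 copies against 2 would give 0.58 and 4 against 2 would give 1.00 in a pure sample measured without loss. A copy-number gain that spans several probes raises neighbouring probes together. The rule did not use a probe's neighbours to choose it, so they are the main further measurement here. Neighbours that were members themselves are left out of the flanks given below. The probes lay a median of 10.8 kb apart.

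Some samples stood apart before any member was looked at. The median of chromosome X probes was -0.09, -0.11 and -0.30 in tumours 239, 240 and 244 and 0.73 in tumour 252, and that of chromosome Y probes was -0.31, -0.14 and -1.20 in the first 3 and -2.43 in tumour 252, so the tumour labelled 252 went against its label of male. Tumour 244 lay apart from the other 3 on many chromosomes, as in the plot of chromosome means. Requiring the level in the other 3 tumours only, 387 probes were chosen without tumour 252, 425 without tumour 244, 444 without tumour 240 and 973 without tumour 239. The 4 probes named for the targeted genes, Fah and Trp53, had log2 ratios between -0.23 and 0.33 in single tumours and none was a member; whether they lie in the deleted parts is not given.

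The sequences of the probes that the results below turn on are shown first. They were taken from the deposited array files, in mm9 coordinates, 5′ to 3′ as the files write them; the files do not state the strand. Capitals mark CG pairs. On chromosome 4, 3 neighbouring members at chr4:62164667-62164726, chr4:62175437-62175496 and chr4:62182522-62182581 lie at Alad, which encodes delta-aminolevulinate dehydratase, an enzyme of heme synthesis that succinylacetone, a product of FAH deficiency, is known to inhibit.
A_67_P12712632 (no gene name): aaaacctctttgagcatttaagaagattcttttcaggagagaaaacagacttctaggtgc
A_67_P00886359 (Alad): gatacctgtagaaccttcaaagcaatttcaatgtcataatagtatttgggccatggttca
A_67_P12712747 (no gene name): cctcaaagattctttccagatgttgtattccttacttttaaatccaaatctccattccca

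On chromosome 17, 4 neighbouring members begin at 27390315, 27451543, 27496718 and 27542896, none with a gene name, with probes of Uqcc2, Ip6k3, Lemd2 and Grm4 around them. They form the longest run by distance.
A_67_P03298714 (no gene name): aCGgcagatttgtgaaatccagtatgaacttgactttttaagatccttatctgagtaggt
A_67_P08747719 (no gene name): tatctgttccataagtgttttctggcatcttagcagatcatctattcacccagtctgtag
A_67_P08747831 (no gene name): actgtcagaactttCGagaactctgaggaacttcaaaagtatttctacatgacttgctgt
A_67_P20428727 (no gene name): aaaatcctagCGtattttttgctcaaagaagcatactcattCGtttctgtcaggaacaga

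On chromosome 19, 3 neighbouring members begin at 34666502, 34672849 and 34680676, inside the cluster of Ifit genes, which are induced by interferon and act against viruses. The middle one carries the name Ifit1bl1.
A_67_P21333992 (no gene name): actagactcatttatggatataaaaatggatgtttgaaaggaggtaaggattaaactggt
A_67_P09158501 (Ifit1bl1): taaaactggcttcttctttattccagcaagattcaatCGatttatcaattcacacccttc
A_67_P09158513 (no gene name): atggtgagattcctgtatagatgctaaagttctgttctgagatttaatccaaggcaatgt

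A pair at Ankrd33b on chromosome 15, an ankyrin repeat gene, is shown as the run of highest mean, with a pair on chromosome 13 at chr13:101098176-101098235 and chr13:101110785-101110842 that lies between probes of Naip genes, which encode sensors of bacterial flagellin and secretion proteins.
A_67_P03003522 (Ankrd33b): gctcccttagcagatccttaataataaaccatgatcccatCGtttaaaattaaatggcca
A_67_P03003545 (Ankrd33b): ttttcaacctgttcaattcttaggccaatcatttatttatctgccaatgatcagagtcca
A_67_P18689906 (no gene name): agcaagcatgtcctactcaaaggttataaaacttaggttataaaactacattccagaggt
A_67_P18689940 (ENSMUST00000118082): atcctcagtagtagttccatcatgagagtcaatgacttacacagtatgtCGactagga

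The next sequences are lone members: the 3 of highest mean with a printed sequence, the probe of Erbb2, a receptor tyrosine kinase and oncogene, and the 1 member of chromosome 12. The first lies at chr11:89647055-89647114, the others at chr4:129290954-129291013, chr17:88174797-88174856, chr11:98278506-98278565 and chr12:78087518-78087577.
A_67_P07437107 (no gene name): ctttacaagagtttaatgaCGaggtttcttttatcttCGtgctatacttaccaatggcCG
A_67_P05400089 (Dcdc2b): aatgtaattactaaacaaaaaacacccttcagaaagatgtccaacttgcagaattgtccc
A_67_P03391038 (Kcnk12): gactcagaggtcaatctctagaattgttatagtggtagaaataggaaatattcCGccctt
A_67_P07458336 (Erbb2): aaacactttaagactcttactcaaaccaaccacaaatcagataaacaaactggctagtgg
A_67_P02552999 (no gene name): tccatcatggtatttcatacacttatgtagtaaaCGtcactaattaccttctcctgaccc

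The members' mean over the 4 tumours ranged from 0.80 to 3.09 with a median of 1.12, and 254 of 348 had a mean of at least 1.0, 66 of at least 1.5 and 11 of at least 2.0. The median over members was 1.08 in tumour 239, 1.12 in tumour 240, 1.20 in tumour 244 and 1.14 in tumour 252. The SD of a member over the tumours had a median of 0.157, beside 0.161 over all probes. Tumour 239 held the lowest value of 120 members and tumour 244 the highest value of 125. Of all probes, 5906 reached 0.75 in 1 tumour only, 1739 in 2, 837 in 3 and 348 in 4. On the low side, 2128 probes were at -0.75 or lower in all 4 tumours.

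**Figure D1:**
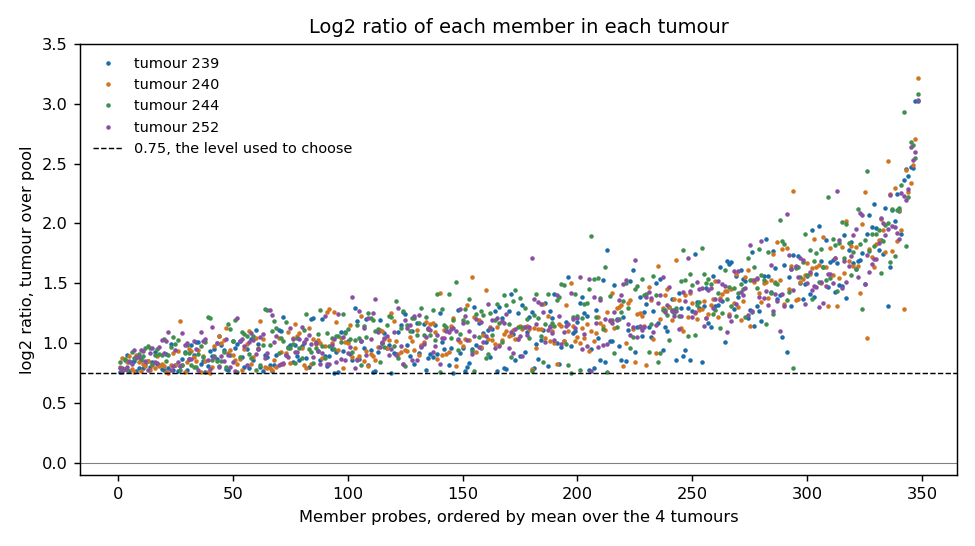
Log2 ratio of tumour over pool (vertical axis) for each of the 348 members, ordered by their mean (horizontal axis), with 1 point per tumour and a dashed line at 0.75, the level used to choose them. The means rise from 0.80 to 3.09, and the 4 tumours overlap along the whole range.

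The highest member, at 89647055 on chromosome 11 with no gene name, read 3.02 in tumour 239, 3.22 in tumour 240, 3.08 in tumour 244 and 3.03 in tumour 252; its pool signal was not well above background on 1 array. The Dcdc2b probe, of a gene with doublecortin domains, read 3.02, 2.71, 2.55 and 2.60 in the same order, and the Kcnk12 probe, of a potassium channel, 2.46, 2.49, 2.66 and 2.53. The Dcdc2b probe spread more widely (SD 0.213) than the median member. The adjacent probes read 0.13 and 0.34 at Dcdc2b, 0.08 and 0.06 at Kcnk12, and 0.73 and 0.41 at the chromosome 11 probe. The other 4 probes of Kcnk12 averaged -0.30 ± 0.03 (SD, n = 4 tumours).

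Susd1, a sushi domain gene on chromosome 4, had a probe at 2.40, 2.27, 2.22 and 2.29 in tumours 239, 240, 244 and 252, while its other 12 probes averaged 0.06 ± 0.12 (SD, n = 4). At Xylt1, which starts glycosaminoglycan chains, the higher of 2 member probes read 2.46, 2.44, 1.81 and 2.20, and the gene's 28 other probes averaged -0.24 ± 0.14. Sh3bp4, an endocytosis gene, had a probe at 1.91, 1.95, 2.33 and 2.25 and 8 others at -0.02 ± 0.12. Each of these genes thus had 1 or 2 member probes beside others that averaged near or below 0, though single other probes reached a mean of 0.78 in Susd1 and 0.59 in Xylt1. The probe of Cntn1, a neural adhesion molecule on chromosome 15, read 2.10, 2.11, 2.13 and 1.87, and the gene's other 30 probes averaged 0.21 ± 0.10. A probe at 88383087 on chromosome 18 with no gene name read 2.47, 2.34, 2.68 and 2.64.

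The single member of chromosome 12, named after its values were seen because it was the only one there, read 2.02, 2.30, 1.73 and 1.97. Its 5 flanking probes averaged -0.32 in tumour 239, -0.13 in tumour 240, -0.40 in tumour 244 and -0.34 in tumour 252. The rule set the member above 0, and the flank was below 0 in limma (adjusted p = 0.00264, 4 of 4 tumours). All non-member probes of chromosome 12 averaged -0.40, -0.21, -0.39 and -0.24 in the same order, so the flank lay near the level of its chromosome. The share of chromosome 12 probes with flanks below 0 was not counted.

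At the edge of the rule, the members of lowest minimum were probes of Crybg2, Doc2b and Gpd2, with measured minimums of 0.7505, 0.7506 and 0.7509; the Doc2b probe was not well above background in the pool on any array, so its value is only a bound. The nearest probes outside were 1 of Col24a1 at 0.7499 and 2 on chromosome 15, which begin at 58159039 and 40223732, at 0.7499 and 0.7489. These differences are far smaller than the median SD of a member over the tumours, given above.

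Chromosome 15 held 86 of the 348 members, 24.7%, against 4.14% of all probes. Its other probes were raised too: the mean of its non-member probes was 0.22, 0.13, 0.34 and 0.27 in tumours 239, 240, 244 and 252. Off chromosome 15 the mean of non-member probes lay between -0.04 and -0.02 in each tumour. Whether the level of chromosome 15 accounts for its share of members was not tested. Of its probes, 1.29% were members. After a running median, taken over a probe and 50 on either side, was subtracted along each chromosome, 20 of 287 probes past 0.75 were on chromosome 15, or 6.97%. Requiring 3 tumours in place of 4 left between 89 and 199 members there, 199 of 973 (20.5%) without tumour 239 and 138 of 444 (31.1%) without tumour 240.

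By count, chromosome 2 followed with 34 members (0.267% of its probes), chromosome 11 with 28 (0.311%) and chromosome 14 with 26 (0.330%). Chromosome 1 held 22 (0.176%) and chromosome 4 held 20 (0.200%). Chromosomes 7, 17 and 18 held 19 each (0.193%, 0.290% and 0.338%). By share, chromosome 18 came next after chromosome 15, and chromosomes 1, 4 and 7 lay below the 0.216% of all probes. At the other end, chromosome 3 held 3 members and chromosome 12 held 1 of its 7146 probes, 0.0140%. Chromosome 12 had the lowest mean of non-member probes, at -0.40, -0.21, -0.39 and -0.24 in the 4 tumours.

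**Figure D2:**
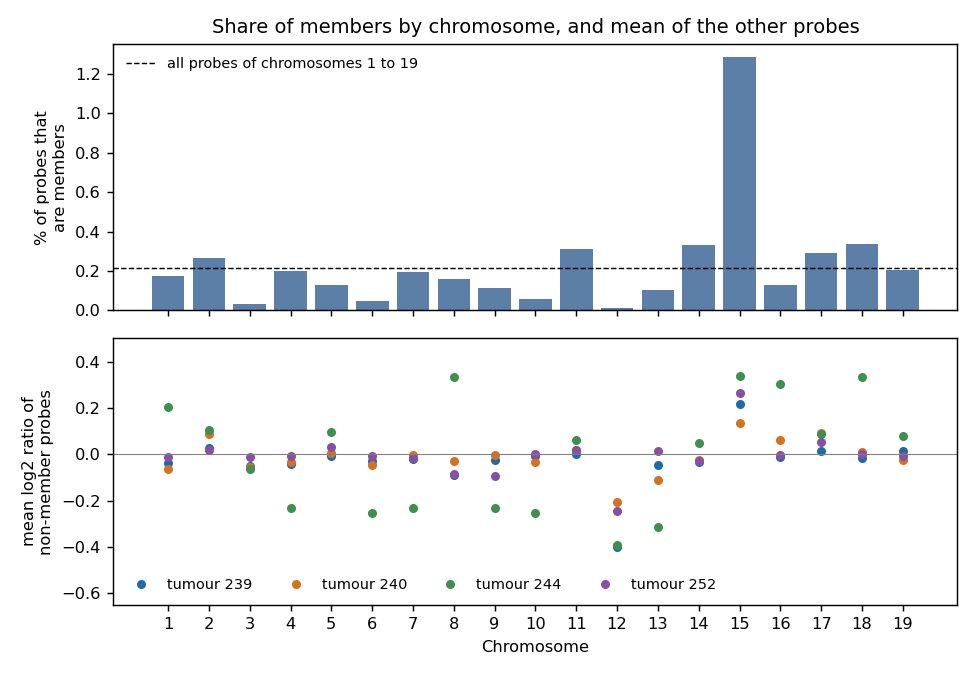
Top, the percentage of each chromosome's probes that are members, with a dashed line at the 0.216% of all probes; bottom, the mean log2 ratio of the non-member probes of each chromosome, 1 point per tumour. Chromosome 15 stands at 1.29% with all 4 points above 0, and chromosome 12 at 0.0140% with all 4 points below 0.

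Most members stood alone. A run was taken as members with no other measured probe between them: 20 members fell into 8 runs, 5 of 2 probes, 2 of 3 and 1 of 4, and the other 328 members had a non-member on both sides. Within 1000 kb, 216 members had another member, and within 100 kb, 70 had one. The same counts were not made for other probes or for chromosome 15 apart, so nothing is read from them about clustering.

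The 3 probes of the Alad run span 17.9 kb. Their mean was 1.33 in tumour 239, 1.16 in tumour 240, 0.91 in tumour 244 and 1.08 in tumour 252, or 1.12 ± 0.18 (SD, n = 4). The probe named Alad, the only one for that gene, read 1.49, 1.13, 0.92 and 1.26. The 10 probes around the run, 5 on each side, averaged 0.05 ± 0.10, and the nearest probes read -0.04 before and 0.38 after it, so both lay below each of the run's 3 probes. Under each processing tried the mean of these 3 probes stayed between 0.91 and 1.19, the lowest with normexp background correction, under which its lowest probe read 0.54. As background, the Alad locus is known to be duplicated in some inbred mouse strains and single in others. The sources used here do not name the strain of these mice.

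The Ifit run spans 14.2 kb and read 1.08, 0.92, 1.06 and 0.87 in the order used above, averaging 0.98 ± 0.10 (SD, n = 4). The 10 probes around it, which include Lipa, Ifit2, Ifit1bl2 and Ifit1, averaged -0.03 ± 0.04. None of these 10 had a mean above 0.44, and the run's mean stayed between 0.95 and 1.40 across the processing tried.

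The run of 4 on chromosome 17 spans 152.641 kb with a mean of 1.24, 1.47, 1.24 and 1.38, or 1.33 ± 0.11. Its single probes averaged 1.27, 1.13, 0.98 and 1.95 along the chromosome, the last with the widest spread, from 1.63 in tumour 239 to 2.25 in tumour 240. The probes on either side read 0.46 and 0.50, and the 10 around it averaged 0.18 ± 0.13. Few probes cover this stretch, so that its 4 members are the only ones measured over that distance.

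The Ankrd33b pair averaged 2.11, 1.79, 2.01 and 1.79, or 1.93 ± 0.16, with nearest probes at -0.35 and 0.01. The other 5 probes of Ankrd33b averaged 0.10 ± 0.12. The pair among the Naip probes averaged 1.47, 1.67, 1.54 and 1.75, or 1.61 ± 0.13, with nearest probes at 0.09 and 0.03. These pairs kept means of at least 1.64 and 1.56 under every processing tried.

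Of the remaining 3 pairs, that of Tanc1, which encodes a synaptic scaffold protein, averaged 1.28 ± 0.26 with 1.66 in tumour 244 and 1.14 to 1.16 in the others. It fell to 0.38 with normexp background correction, and its second probe was not well above background in the pool on 1 array. The pair at Ccser2 averaged 1.34 ± 0.03 within a stretch whose 10 surrounding probes averaged -0.45 ± 0.04, with 1 of them at -1.74. The pair at Ctnnd2, which encodes delta-catenin, averaged 1.19 ± 0.13 against 0.17 ± 0.11 around it.

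**Figure D3:**
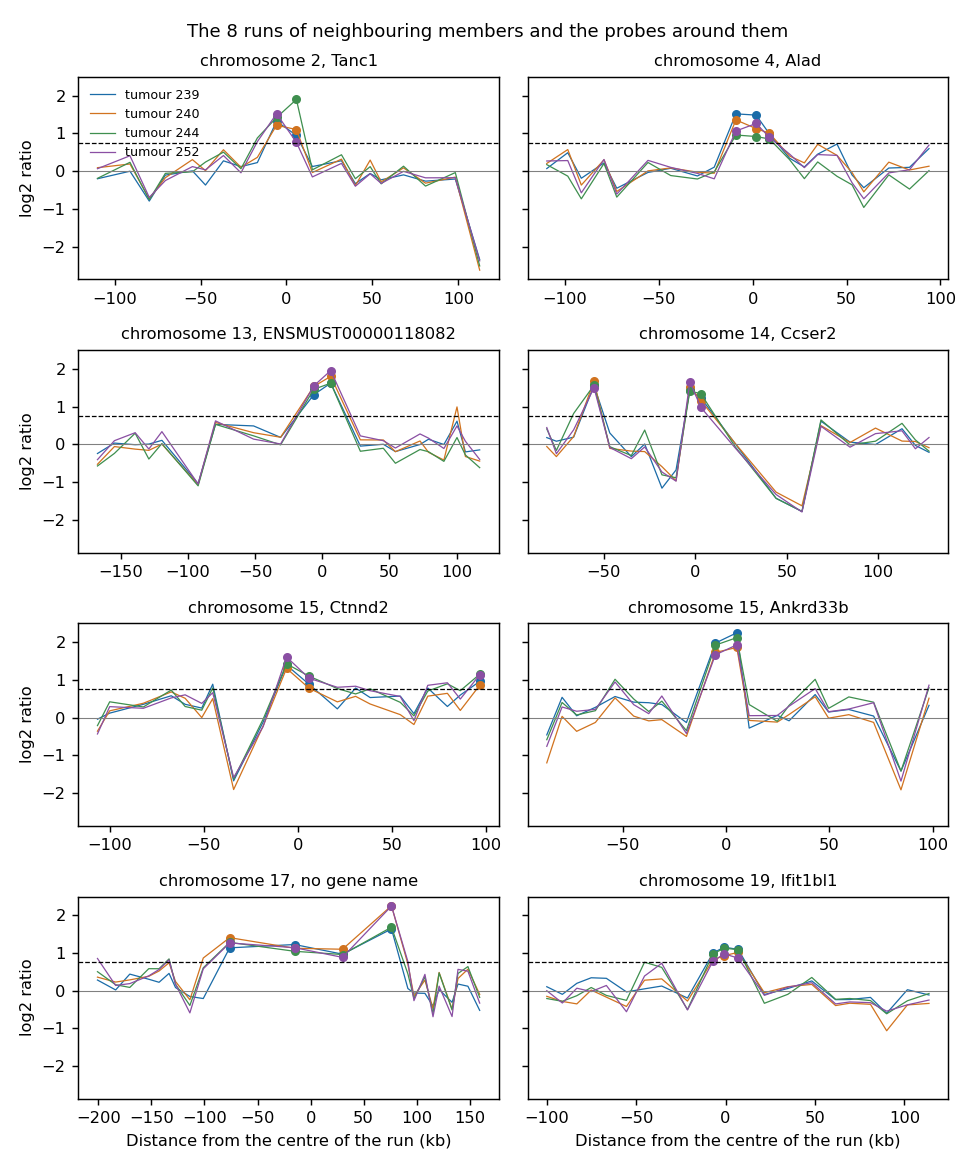
Log2 ratio (vertical axis) against distance from the centre of each run in kb (horizontal axis) for the 8 runs, 1 line per tumour; circles mark members and the dashed line is 0.75. The 10 probes around the runs average between -0.45 (Ccser2) and 0.22 (Ankrd33b), below the members of the same panel, whose run means lie between 0.98 and 1.93.

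Around the 246 lone members off chromosome 15, the median of the nearest probe was 0.06 on the lower side and 0.04 on the upper side, against 1.13 for the members. Around the 82 lone members of chromosome 15 these medians were 0.34 and 0.35 against 1.07, while the median of all chromosome 15 probes was 0.27. So the lone members stood above neighbours that lay near the level of their chromosomes. By the definition of a lone member, no adjacent probe was at 0.75 or higher in all 4 tumours. In 26 of 348 members both adjacent probes were at a mean of 0.4 or higher, beside 1.48% of all probes. Adjacent probes that were members themselves are included in this count, and chromosome 15 was not counted apart, so nothing is read from it. In 213 members both adjacent probes were below 0.4, and in 54 both were below 0. The shares of all probes with both neighbours below these levels were not counted, so nothing is read from these counts.

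**Figure D4:**
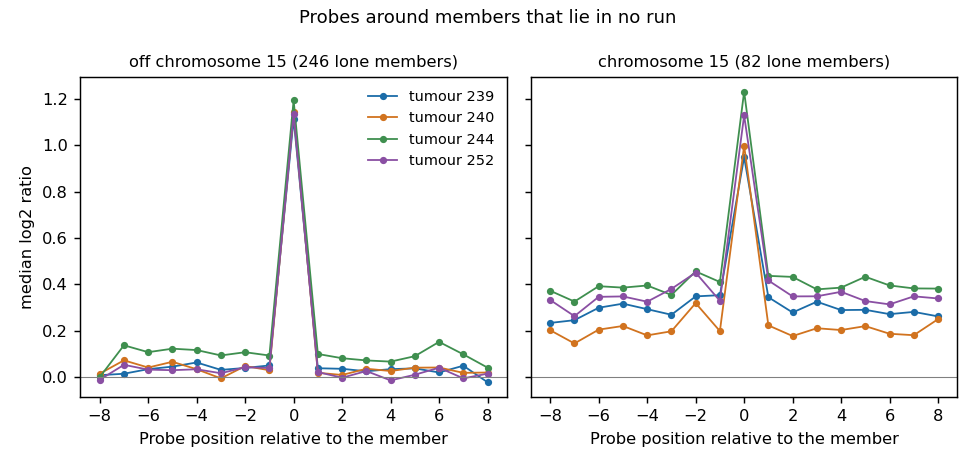
Median log2 ratio (vertical axis) at each of 8 probe positions on either side of lone members (horizontal axis, 0 is the member), 1 line per tumour, for 246 members off chromosome 15 and 82 on it. On either side of the member the medians lie near 0 off chromosome 15 and between 0.14 and 0.46 on it. Lone members have no adjacent member by definition, so nothing is read from the width of the peak.

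The 2505 non-member probes within 50 kb of members averaged 0.06, 0.04, 0.13 and 0.08 in tumours 239, 240, 244 and 252, or 0.08 ± 0.04 (SD, n = 4; exact two-sided sign-flip permutation test, p = 1/8, the smallest that 4 tumours allow). Off chromosome 15 the mean was 0.01 ± 0.03 over 1871 probes (exact permutation test, p = 1), beside -0.03 ± 0.01 over all non-member probes there, and its value in tumour 244 was 0.05 against -0.01 to 0.00 in the others. On chromosome 15 it was 0.28 ± 0.08 over 634 probes (exact permutation test, p = 1/8), beside 0.24 ± 0.09 over all non-member probes of that chromosome. The design cannot reach a p under 0.05 by this test.

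In limma, fitted to the flank means of all probes with at least 3 flanking probes and adjusted by Benjamini-Hochberg at 0.05, the flanks of 117 of 325 members were above 0, against 15.5% of all probes. Flanks below 0 occurred at 39 of the 325 members and at 24540 of all 145646 probes tested. Chromosome 15 supplied 68 of the 117, and 4603 of 5939 probes of that chromosome (77.5%) had flanks above 0. Off chromosome 15, 49 of 243 members (20.2%) had flanks above 0, against a background of 12.9%. The 39 members with flanks below 0 were all off chromosome 15 (16.0%), where the share below 0 over all probes was not counted. Neighbouring windows share probes, and the test measures the spread between 4 tumours against 1 pool. After subtraction of the running median, 63 of 266 members had flanks above 0, beside 35580 of 145648 probes. Off chromosome 15 this was 61 of 247 members, beside 34134 of 139701 probes. The shares of members and of all probes thus lay close together under that setting. Without tumour 239 the count was 229 of 915 members, beside 14722 of 145594 probes.

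Low probes also lay near members. Within 50 kb of 48 of 348 members (13.8%) there was a probe at -0.75 or lower in all 4 tumours, against 8.01% of all probes. The 3 members of Nek11, a kinase of the DNA damage response, show this: they averaged 1.37, 1.28 and 1.51, and the probes beside the first read -0.80 and -1.03. Around Iqgap2, a scaffold protein abundant in liver, the 3 members averaged 0.99, 1.88 and 1.16 while the gene's other 23 probes averaged -0.31 ± 0.12 (SD, n = 4) and ranged from -1.60 to 0.59. High and low probes thus lay within the same genes.

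A gene name was attached to 240 members (69.0%), against 60.96% of all probes, and 217 distinct names occurred. With 2 or more member probes there were 18 genes, and 199 had 1. Ctnnd2 had 4 members of 83 probes, and its other 79 probes averaged -0.08 ± 0.08 with the lowest at -4.14. Ptprt, a receptor tyrosine phosphatase, had 3 of 119, with the others at 0.02 ± 0.08; its members averaged 1.02, 0.91 and 1.17. In none of these genes were all probes members.

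Of the genes with 2 members, Rims2 (presynaptic release) and Tmem117 on chromosome 15 had other probes at 0.32 ± 0.07 and 0.33 ± 0.11. Prex2, an exchange factor for Rac, had other probes at 0.11 ± 0.11, Armc9 at 0.24 ± 0.12 and Abcc4, an efflux transporter, at 0.01 ± 0.07. The other probes of Dlgap4, Fam172a and Specc1 averaged -0.18, -0.08 and -0.11. Nxpe5 was the gene nearest to being raised throughout: its 2 members averaged 1.07 and 1.13 and its only other probe read 0.26, 0.81, 0.71 and 0.55. That probe reached 0.75 in tumour 240 alone. With normexp background correction the 2 Nxpe5 members averaged 0.35 and 0.85.

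Of 40 listed oncogenes of liver cancer, 30 had probes by name, 138 in all, and 1 was a member (0.725%), beside the background of 0.216%. That probe, of Erbb2, read 1.34, 1.04, 1.16 and 1.01 in the same order of tumours, averaging 1.14 ± 0.15 (SD, n = 4). The only other Erbb2 probe, the next one along, read 0.04, 0.21, 0.08 and 0.26, so the gene's probes did not overlap. The flanks of the Erbb2 member averaged 0.18 (limma, adjusted p = 0.0144, 4 of 4 tumours above 0). Rictor, a subunit of the mTOR complex on chromosome 15, had 10 probes and no member, with a mean of 0.37 ± 0.09, beside 0.24 ± 0.09 over the non-member probes of that chromosome.

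Gene families that lie in multi-copy clusters were counted against the background of 0.216% of all probes. No member occurred among probes named Olfr (88), Vmn, V1r or V2r (209), Klr (44), Defa or Defb (18), Mup (1), Speer (5), Skint (115), Cyp (217), Ugt (44), Ceacam or Psg (22), Serpin (87) or H2- (20). Among 997 Zfp probes 1 was a member (0.100%), in Zfp618. Among 1189 probes whose array name begins with Gm there were 6 (0.505%), a small count whose difference from the background was not tested. They include Gm608 and Gm14446, which are now named Usf3 and Ifit1bl1. The other families hold too few probes for a count of 0 to stand apart from that background. The 291 probes of 46 genes listed for copy number that differs between inbred strains held 0 members by name. That list is likewise too short for its 0 to stand apart, and it did not include Alad or the Ifit genes. It did include Naip, but the member pair on chromosome 13 between probes of Naip genes does not carry that name and was not counted. The Zfp618 probe read 1.30, 1.22, 0.76 and 1.06, and the probes beside it -0.05 and 0.13.

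Each tumour was also read at probes chosen in the other 3. Tumour 239 had a median of 0.60 at 973 such probes, tumour 240 of 1.02 at 444, tumour 244 of 1.12 at 425 and tumour 252 of 1.103 at 387. The share at 0.75 or higher was 35.8%, 78.4%, 81.9% and 89.9%; these are the 348 members over each number chosen, so they restate the rule and nothing is read from them. Of all probes, 0.644%, 1.5%, 3.5% and 2.58% were at 0.75 or higher in the same tumours. Values were above 0 at 97.5% of them in tumour 239 and at 99.8% to 100% in the others. The arrays share the pool, the dye orientation and the slide, so these are not independent readings: over the members the correlation between pairs of arrays was 0.66 to 0.77, and over all probes 0.68 to 0.86.

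The signals behind the ratios differed in the pool. The members' median processed signal in the pool was 437, 435, 447 and 443 on the arrays of tumours 239, 240, 244 and 252, against 954, 945, 967 and 944 over all probes. In the tumours it was 986, 1072, 1134 and 1067, against 954, 966, 999 and 947. So the members as a set were dim in the pool and near the middle of all probes in the tumours. Both signals form the ratio that chose the members, so this is a description. The pool signal lay below the all-probe median at 289 to 294 members.

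The pool was not well above background at 27 to 35 members per array, against 0.894% to 1.04% of all probes, and on all 4 arrays at 16 members. For those 16 the ratio has only a lower bound, taken as the mean tumour signal over the lowest signal well above background on each array, or the probe's own pool signal where higher. The highest bounds were at least 2.56-fold for the probe of Tgds, at least 2.13-fold for Spats2 and at least 2.10-fold for Taf2. The next was at least 2.02-fold for Doc2b. The lowest were at least 1.35-fold for the Specc1 probe and at least 1.02-fold for Col16a1, and 1 probe on chromosome 2 with no gene name had no bound above 1, so that for these last probes the signals set little or no lower limit above equal amounts. These bounds apply only to the processed signals as the authors' software background-subtracted them. With normexp background correction the probes of Spats2, Doc2b and Specc1 averaged -0.44, -0.52 and -0.71 on the log2 scale, below their bounds. Without all probes at which either colour was not well above background, 300 members remained.

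The background correction changed which probes passed. With normexp background correction 360 probes passed the rule, of which 174 were among the 348, which is 48.3% of the normexp list; the other 174 members were not kept. After removal of a lowess trend on signal, 249 of the 348 remained, and after subtraction of the running median, 228. The Ifit, Naip, Ankrd33b, Ctnnd2 and chromosome 17 runs kept every probe's mean above 0.75 with normexp. The lowest probe mean was 0.93 in the chromosome 17 run and 0.756 in the Ctnnd2 pair. The Alad run kept a mean of 0.91, but 1 of its 3 probes fell to 0.54. Of the 75 probes named by rule, 21 moved by less than their SD over the tumours with normexp, 50 moved by more and 4 changed sign. The highest member fell from 3.09 to 1.88 on the log2 scale and the Kcnk12 probe from 2.54 to 1.54, while the Dcdc2b probe read 2.56.

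The rule did not use the probe sequences. The members' median GC content was 36.7%, as over all probes, with a range of 30% to 43.6% against 15% to 55.6%. A CG pair occurred in 41.1% of members and 36.1% of all probes, and a run of 5 or more of 1 base in 28.7% and 25.6%. AGCT, the site of AluI, occurred in no probe at all, and GTAC, the site of RsaI, in 0 members and 3 of all probes; both motifs read the same on either strand. A stretch of 20 bases shared with another probe occurred in 1 member (0.287%) and in 138 of all probes (0.0855%). The exon or intron position of the probes was not analysed here.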

How the data were processed

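DNA of 4 liver tumours (Cy5) and of a pooled wild-type liver control (Cy3) was measured on 4 arrays. The processed signals are intensities that, per the file headers, the authors' Agilent Feature Extraction software background-subtracted and dye-normalised (version 12.0.0 per the submitters' processing notes). The deposited value table holds log10 ratios of Cy5 over Cy3, which differed from the scanner's by at most rounding. The deposited flags for outlier, saturation and background are 0 or 1 codes per the file headers.

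Control and outlier spots were dropped, log2 ratios were averaged per probe and each array was centred on its median. Coordinates are mm9, from the files. Gene names were updated by RefSeq symbols (GRCm38.p6, names only): of 217 names 190 were current, 9 older and 18 kept as given. The members and lists were chosen with earlier results of these data known. Probes named were the runs, the 10 highest means, the 3 nearest either side of 0.75, genes with 2 or more members and members in listed genes.

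Flanks were tested by exact two-sided sign-flip permutation and by limma 3.58.1 (R 4.3.3), checked on simulated data; Python 3.11.15 and pandas 2.3.3 did the rest. With 4 tumours the smallest permutation p is 1/8. The p-values measure the spread between these 4 tumours against 1 pool. The number of arrays limits the precision. Alternatives were normexp (offset 50), mode centring, the authors' value table, lowess, GC and running-median removal, other thresholds and windows, kept outlier spots, robust eBayes and leaving out each tumour.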

Additional observations from a re-analysis of the deposited data

Results flagged for a closer look

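Of 106 sets of 4 tumour values, 4 had 1 tumour far from the other 3, and chance gives about 1 in 20. At the Cntn1 probe tumour 252 read 1.87 beside 2.10 to 2.13 in the others. The flanking probes of members off chromosome 15 averaged 0.048 in tumour 244 and between -0.01 and 0.00 in the others. The 10 probes around the Ccser2 pair averaged -0.50 in tumour 252 and -0.44 to -0.43 in the others. The other probes of the transcript ENSMUST00000130696 averaged 0.16 in tumour 244 and -0.07 to -0.04 in the others.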

How the results depend on the processing

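The count of 348 stayed within 1.5 times under normexp, mode centring, the authors' value table, lowess, GC removal, running-median removal and the probes well above background, though fewer of the same probes were shared under normexp. It was 1926 at a threshold of 0.5 and 133 at 1.0, and 387 to 973 with each tumour left out. Members in runs were 187 and 6 at these thresholds, and 20 to 44 with each tumour left out; members on chromosome 15 were 527 and 22, 20 after running-median removal, and 89 to 199 with each tumour left out. These chromosome 15 counts were added after seeing the data. Members with flanks above 0 in limma were 620 of 1799 and 38 of 120 at the thresholds. All probes with such flanks were 19718 of 145490 and 23061 of 145667. After lowess, 76 of 248 members had them, beside 18044 of 145648 probes. After running-median removal it was 63 of 266 members, beside 35580 of 145648 probes. With each tumour left out, members ranged from 96 of 361 to 229 of 915. All probes were 12027 of 145638 and 14722 of 145594 in these settings. The flanks' mean reversed to -0.046 after running-median removal, which by construction takes away the chromosome's level, and lay between 0.04 and 0.10 with each tumour left out. Of the named probes 4 reversed, all under normexp: Specc1 at -0.71, Doc2b at -0.52, Spats2 at -0.44 and Usf3 at -0.20, where the pool was not well above background on 4, 4, 4 and 2 arrays; 50 others moved by more than their SD under normexp, 26 after running-median removal and 13 after lowess, of 75. The median GC content changed under no alternative. No paired analysis was possible because all 4 tumours form 1 group against 1 pool. Signal over background limits the 48 members whose pool signal was not well above background on 1 or more arrays.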
